A study of Mus musculus with 2 samples.

Results

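The cells described here carried RNA of both Atoh1 and Wif1 in the cerebellum of mouse embryos with an activated β-catenin allele and a deleted Smarca4. They were chosen by their own counts: a cell of the mutant library passed with at least 1000 UMIs (unique molecular identifiers, each counting 1 captured RNA molecule), at least 500 genes and at most 10% mitochondrial UMIs, and was a member with at least 1 Atoh1 UMI and at least 2 Wif1 UMIs. This rule took 411 of the 16482 passing mutant cells, out of 33294 passing cells in both libraries. They are called Atoh1+ Wif1-high cells. The mutant embryos carried Blbp-cre together with the alleles Ctnnb1(ex3)fl/wt and Smarca4fl/fl and had cerebellar lesions. The controls were cre-negative, and the labels give no floxed alleles for them. Both were at E16.5. Blbp-cre acts in neural progenitors and radial glia, so that the recombined cells include their descendants, and the labels give no reporter that tells recombined from other mutant cells. The whole cerebellum was dissociated with papain and DNase, 7-AAD-labelled dead cells were removed by sorting, 3 samples of each genotype were pooled, and 1 library per genotype was made from 40000 loaded cells with 10x Genomics 3' v3.1 chemistry.

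With 1 library per genotype there was no test of any difference. Each value is given with a 95% interval or beside the compared groups' values, and these intervals cover counting error only. The Atoh1+ Wif1-high cells were set against 862 mutant cells with Atoh1 and no Wif1 UMI (mutant Atoh1+ Wif1-zero cells), 3322 control cells with Atoh1 and no Wif1 UMI (control Atoh1+ Wif1-zero cells), and 4710 mutant cells with at least 2 Wif1 UMIs and no Atoh1 UMI (mutant Wif1-high Atoh1-zero cells). All 3 comparisons share the same 411 cells. Levels are a group's UMIs of a gene per 1000000 UMIs summed over its cells (CPM), and a gene was counted as higher or lower when it reached 20 CPM in either group and log2((CPM + 1)/(CPM + 1)) passed 2-fold. That is a rule of size alone.

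Atoh1 encodes a basic helix-loop-helix transcription factor of the rhombic lip, from which granule cell precursors, unipolar brush cells and glutamatergic neurons of the cerebellar nuclei arise. In canonical Wnt signalling, β-catenin that escapes degradation enters the nucleus, binds TCF and LEF factors and raises target genes, many of which encode feedback inhibitors. The exon 3 allele of Ctnnb1 removes the residues whose phosphorylation marks β-catenin for degradation. Wif1 encodes a secreted protein that binds and inhibits Wnt ligands and is known as a target in tumours with active β-catenin. Smarca4 encodes the ATPase BRG1 of the BAF chromatin remodelling complex. Barx2, a homeobox gene, was proposed as a further marker of these cells.

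The mutant library held 220565819 UMIs in 21596 barcodes and the control library 225512196 UMIs in 21457 barcodes. Median depth was 17420 UMIs in the Atoh1+ Wif1-high cells, 11056 in the mutant Wif1-high Atoh1-zero cells, 14808 in the mutant Atoh1+ Wif1-zero cells and 15032 in the control Atoh1+ Wif1-zero cells. A doublet caller marked 11.2% (8.31 to 14.6%) of the Atoh1+ Wif1-high cells, 5.31% of the mutant Wif1-high Atoh1-zero cells, 3.60% of mutant Atoh1+ Wif1-zero cells and 7.92% of the control Atoh1+ Wif1-zero cells. The marked cells were kept, and single gene levels over all cells are given with them. Some list medians and the share of genes lying between groups are also given without them, and the clustering left them out. Of 72 ratios of named genes, 53 stayed within their interval when marked cells were removed and 19 moved. The libraries shared 67 passing barcodes, 1 of them among the Atoh1+ Wif1-high cells.

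The genes that chose the cells are Atoh1 (chr6:64729125-64731245, plus strand, GRCm38/mm10) and Wif1 (chr10:121033960-121100650, plus strand), and their values are a description. Atoh1 ran between 1 and 30 UMIs per cell with a median of 2, and Wif1 between 2 and 69 with a median of 8. A single Atoh1 UMI was all that 144 cells had, while 116 cells had 5 or more. Exactly 2 Wif1 UMIs were found in 58 cells, and 163 further mutant Atoh1+ cells had 1 Wif1 UMI and lay just outside. Just inside, at 2 Wif1 UMIs, Axin2 was at 84.8 CPM, Neurog2 at 153 CPM, Fstl4 at 263 CPM and Barhl1 at 159 CPM. Just outside, at 1 UMI, they were at 65.1 CPM, 41.9 CPM, 158 CPM and 167 CPM in the same order.

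Cells of this kind made up 2.49% (2.26 to 2.74%) of the mutant library. In the control library 12 of 16812 cells met the same rule, 0.0714% (0.0369 to 0.125%). Of those 12, 5 were marked as doublets, 9 had exactly 2 Wif1 UMIs, and their median depth was 23173.5 UMIs. Wif1 reached 2 UMIs in 28.6% (26.3 to 31.0%) of the 1436 mutant Atoh1+ cells and in 0.355% (0.184 to 0.620%) of the 3376 control Atoh1+ cells. Within the mutant library that share stood beside 31.3% (30.6 to 32.1%) of the 15046 cells without Atoh1. With every cell thinned to 3000 UMIs the shares were 13.5% (11.8 to 15.4%) and 21.2% (20.5 to 21.9%). Among mutant Atoh1+ cells, 148 had 2 to 5 Wif1 UMIs, 152 had 6 to 15 and 111 had 16 or more.

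**Figure D1:**
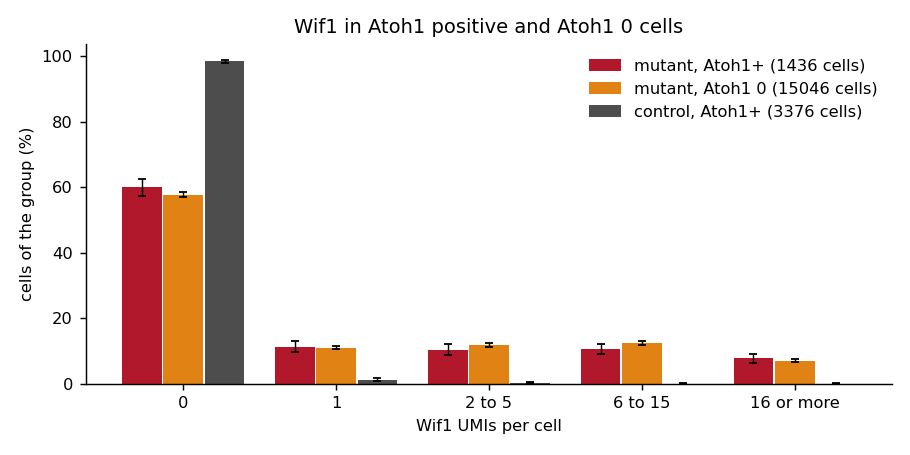
Share of mutant Atoh1+, mutant Atoh1-zero and control Atoh1+ cells in each class of Wif1 UMIs per cell (x axis, UMIs; y axis, percent of the group's cells; error bars, exact 95% binomial intervals). Wif1 at 2 or more UMIs is found in 28.6% of mutant Atoh1+ cells and in 0.355% of control Atoh1+ cells.

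Free RNA in droplets can give UMIs to cells that do not express a gene. In 508 mutant cells of Alas2-led clusters (clusters with Alas2, a gene of haem synthesis in red blood cell precursors, among their leading genes), Atoh1 was seen in 4.13% (2.58 to 6.25%) of cells and Wif1 at 2 or more UMIs in 17.9% (14.7 to 21.5%), at a median of 19909 UMIs. Thinned to 3000 UMIs, the shares were 0.398% and 5.78%. In 133 mutant cells of a cluster with C1qb, a complement gene of microglia, among its leading genes, they were 2.26% and 6.77% at a median of 9267 UMIs. In 390 control cells of the Alas2-led clusters, Atoh1 was seen in 17.2% (13.6 to 21.3%) at a median of 20793 UMIs and in 4.97% at 3000 UMIs. That stood beside 20.1% of all control cells. How many of the control Atoh1+ Wif1-zero cells carried Atoh1 from free RNA was not tested. The share with Wif1 among mutant Atoh1+ cells was above those of the mutant Alas2-led and C1qb cells, and the share with Atoh1 among mutant cells with at least 2 Wif1 UMIs was 8.03%, against 9.02% among the other mutant cells. How much free RNA added to the cells near the thresholds was not tested. Some values are therefore also given for the 116 cells with 5 or more Atoh1 UMIs.

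Against mutant Atoh1+ Wif1-zero cells, the Atoh1+ Wif1-high cells had 373 genes higher, 5.18% of the 7194 measured, and 82 lower, 1.14% (6.32% either way). Against control Atoh1+ Wif1-zero cells, 642 of 7282 genes were higher, 8.82%, and 205 lower, 2.82% (11.6% either way). Against mutant Wif1-high Atoh1-zero cells, 97 of 7232 genes were higher, 1.34%, and 69 lower, 0.954% (2.3% either way). Over all cells, the fewest genes passed against the Wif1-high cells without Atoh1. Outside the clusters made up mostly of mutant cells that order turned, with 465 higher and 316 lower there, 222 higher and 40 lower against mutant and 322 higher and 127 lower against control Atoh1+ Wif1-zero cells. The median log2 ratio over all genes was 0.07, 0.13 and -0.00 in these 3 comparisons. With every cell weighted equally in place of summed UMIs, 319 genes were higher and 128 lower against the mutant Atoh1+ Wif1-zero cells, and 91 higher and 118 lower against the mutant Wif1-high Atoh1-zero cells.

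Wnt target genes were higher in the Atoh1+ Wif1-high cells than in Atoh1+ cells without Wif1. Of 10 measured targets, 9 were higher than in mutant Atoh1+ Wif1-zero cells, beside 5.18% of all genes. The list median log2 ratio was 2.16 against 0.07 over all genes. All 10 were higher than in control Atoh1+ Wif1-zero cells, beside 8.82% of all genes, with a median of 3.38 against 0.13. None of 11 was higher than in the mutant Wif1-high Atoh1-zero cells, beside 1.34% of all genes, too near to set the list apart. Lower were 2 of 11, beside 0.954% of all genes, with a list median of -0.48. The rule used none of these genes, but it set the groups by Wif1, itself a known target. The Atoh1+ Wif1-high cells were chosen for Wif1 and both Atoh1+ Wif1-zero groups for its absence. Higher levels of other targets can follow from that choice, so they are a description and not independent support.

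Axin2 (chr11:108920349-108950783, plus strand), which encodes a scaffold of the β-catenin destruction complex and serves as a general readout of the pathway, was at 157 CPM in the Atoh1+ Wif1-high cells. It was at 203 CPM in the mutant Wif1-high Atoh1-zero cells, 38.7 CPM in the mutant Atoh1+ Wif1-zero cells and 15.4 CPM in the control Atoh1+ Wif1-zero cells. The ratio was 4.06-fold (3.67 to 4.49) over the mutant and 10.2-fold (9.35 to 11.1) over the control Atoh1+ Wif1-zero cells. It was spread widely, with a UMI in 84.2% of the Atoh1+ Wif1-high cells, against 34.3% of the mutant and 20.5% of the control Atoh1+ Wif1-zero cells. Lef1, a DNA-binding partner of β-catenin, was at 233 CPM, against 325, 45.3 and 19.7 CPM in the same 3 groups.

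The feedback inhibitors moved with them. Nkd1, an intracellular inhibitor of Dishevelled, was at 718 CPM, against 858 CPM in mutant Wif1-high Atoh1-zero, 274 CPM in mutant Atoh1+ Wif1-zero and 150 CPM in control Atoh1+ Wif1-zero cells. It had a UMI in 403 of the 411 cells. Znrf3, a ubiquitin ligase that removes Wnt receptors, was at 258 CPM, against 355, 91.9 and 85.3 CPM in those groups. Notum, a secreted enzyme that inactivates Wnt ligands, was at 35.7 CPM, against 117, 3.05 and 0.284 CPM, so that it was lower than in the mutant Wif1-high Atoh1-zero cells while higher than in both Atoh1+ groups. Rnf43, the partner ligase of Znrf3, was likewise lower than in the mutant Wif1-high Atoh1-zero cells, at 12.2 against 46.0 CPM. Of the 5 secreted or surface antagonists measured, Dkk2, Notum and Apcdd1 were higher than in mutant Atoh1+ Wif1-zero cells and none was lower. That is 3 of 5 higher, beside 5.18% of all genes. Sfrp1 was lower than in control Atoh1+ Wif1-zero cells, at 13.4 against 30.7 CPM.

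The other targets had the same order of groups. Lgr5, an R-spondin receptor, was at 48.3 CPM, against 66.4 CPM in mutant Wif1-high Atoh1-zero, 7.74 CPM in mutant Atoh1+ Wif1-zero and 3.14 CPM in control Atoh1+ Wif1-zero cells. Tnfrsf19, a receptor of the tumour necrosis factor family, was at 140 CPM, against 211, 22.0 and 4.64 CPM. Sp5, a transcription factor induced by Wnt, was at 210 CPM, against 264, 111 and 94.1 CPM, which passed 2-fold only over the control. In the 116 cells with 5 or more Atoh1 UMIs, 7 of 9 targets were higher than in mutant Atoh1+ Wif1-zero cells with as much Atoh1. There, 322 of all 7149 genes were higher. At 3000 UMIs per cell, at least 2 UMIs over 9 Wnt targets were found in 87.5% of the Atoh1+ Wif1-high cells, 91.8% of the mutant Wif1-high Atoh1-zero, 48.1% of the mutant Atoh1+ Wif1-zero and 34.6% of the control Atoh1+ Wif1-zero cells.

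**Figure D2:**
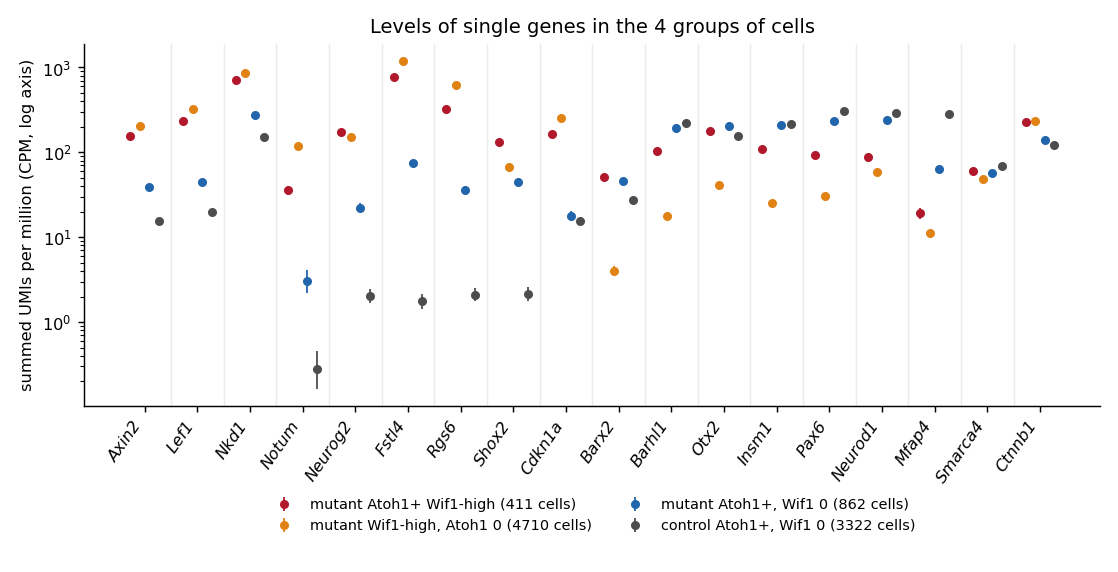
Summed level of single genes (CPM, log axis) in the Atoh1+ Wif1-high cells and the compared groups, with exact 95% Poisson intervals. The level of Axin2 is 157 CPM in the Atoh1+ Wif1-high cells and 38.7 CPM in mutant Atoh1+ Wif1-zero cells, while that of Barhl1 is 104 and 193 CPM.

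Neurog2 (chr3:127633135-127635631, plus strand), a proneural factor of neurogenic progenitors, was among the genes furthest above both Atoh1+ Wif1-zero groups. It was at 176 CPM in the Atoh1+ Wif1-high cells, 154 CPM in the mutant Wif1-high Atoh1-zero cells, 22.4 CPM in the mutant Atoh1+ Wif1-zero cells and 2.02 CPM in the control Atoh1+ Wif1-zero cells. The ratios were 7.85-fold (6.95 to 8.89) over the mutant and 86.9-fold (71.8 to 106) over the control Atoh1+ Wif1-zero cells. It was seen in 57.2% of the Atoh1+ Wif1-high cells, against 11.7% of the mutant and 1.87% of the control Atoh1+ Wif1-zero cells. Thinned to 3000 UMIs these shares were 29.1%, 5.16% and 0.338%. Among the 4 proneural and Notch ligand genes measured, only Neurog2 passed 2-fold over either Atoh1+ Wif1-zero group. That is 1 of 4, beside 5.18% of all genes against the mutant and 8.82% against the control cells. Neurog2 stands in a fixed list of PTF1A-lineage markers, whose other members were all under 20 CPM. Hes6, which promotes neurogenesis, was at 351 CPM, against 176 CPM in mutant Wif1-high Atoh1-zero, 272 CPM in mutant Atoh1+ Wif1-zero and 210.5 CPM in control Atoh1+ Wif1-zero cells. Olig3, a factor of dorsal hindbrain progenitors, was at 43.4 CPM, against 21.4, 10.4 and 3.42 CPM.

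A list of 13 genes taken from the mutant lesions in earlier work on these same libraries, so not independent evidence, had 11 of 12 measured members higher than in mutant Atoh1+ Wif1-zero cells (median log2 2.98) and 11 of 12 higher than in the control cells (median 4.45). Of all genes, 5.18% and 8.82% were higher in those comparisons. None of 13 list members was higher than in the mutant Wif1-high Atoh1-zero cells and 3 were lower, beside 1.34% and 0.954% of all genes. Fstl4, which encodes a secreted follistatin-like protein, was at 775 CPM, against 1203 CPM in mutant Wif1-high Atoh1-zero, 74.4 CPM in mutant Atoh1+ Wif1-zero and 1.77 CPM in control Atoh1+ Wif1-zero cells. Rgs6, a regulator of G protein signalling, was at 324 CPM, against 623, 36.1 and 2.11 CPM. Adamts19, a secreted metalloprotease, was at 216 CPM, against 452, 24.0 and 3.44 CPM. Pde1a, a calcium-dependent phosphodiesterase, was at 244 CPM, against 347, 25.6 and 8.01 CPM. Cygb, which encodes cytoglobin, was at 124 CPM, against 300 CPM in mutant Wif1-high Atoh1-zero cells, and was among the 3 lower there. Ltbp1, which binds latent TGF-β and is not on that list, had the largest ratio over mutant Atoh1+ Wif1-zero cells among genes at 50 CPM or more, 21.9-fold, at 86.9 against 3.97 CPM. Its UMIs were less widely spread, with 115 cells carrying any and 10 cells carrying 41.5% of them.

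Granule lineage genes gave a mixed picture. None of 14 measured transcription factors of that lineage was higher than in mutant Atoh1+ Wif1-zero cells and 2, Pax6 and Neurod1, were lower. Of all genes, 5.18% were higher and 1.14% lower. The list medians were 0.05 against mutant and 0.08 against control Atoh1+ Wif1-zero cells, and the median against the control became -0.11 when haemoglobin, mitochondrial and ribosomal protein genes were left out of the total, where the median of all genes was 0.00 in place of 0.13. Against mutant Wif1-high Atoh1-zero cells, 4 of 13 were higher, beside 1.34% of all genes: Barhl1, Barhl2, Pax6 and Insm1. The list median was 0.41.

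Barhl1, a homeobox factor downstream of Atoh1 in granule precursors, was at 104 CPM in the Atoh1+ Wif1-high cells. It was at 18.0 CPM in the mutant Wif1-high Atoh1-zero cells, 193 CPM in the mutant Atoh1+ Wif1-zero cells and 223 CPM in the control Atoh1+ Wif1-zero cells. Its ratio was 0.54-fold (0.50 to 0.58) against the mutant Atoh1+ Wif1-zero cells and 5.76-fold against the mutant Wif1-high Atoh1-zero cells, so that it lay between them. Pax6, a regulator of granule cell development, was at 94.1 CPM, against 30.6, 235 and 305 CPM in those 3 groups. Insm1, a zinc finger factor of neurogenic progenitors, was at 111 CPM, against 25.2, 212 and 213 CPM. Otx2, a homeobox factor of rhombic lip derivatives and choroid plexus, was at 177 CPM, against 41.6, 203 and 157 CPM, and was thus within 2-fold of both Atoh1+ groups.

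Single genes of differentiation and of the granule lineage were lower than in mutant Atoh1+ Wif1-zero cells, while most measured genes of their lists were within 2-fold. Neurod1, which drives granule cell differentiation, was at 87.7 CPM, against 59.0 CPM in mutant Wif1-high Atoh1-zero, 240 CPM in mutant Atoh1+ Wif1-zero and 287 CPM in control Atoh1+ Wif1-zero cells. Gap43, a growth cone protein, was at 117 CPM, against 187, 305 and 467 CPM. Mfap4, an extracellular matrix gene used here as a granule precursor marker, was at 19.2 CPM, against 11.2, 64.1 and 285 CPM. Within cluster 12, described below, the direction turned against the 69 mutant Atoh1+ Wif1-zero cells, with log2 ratios of 1.85 for Neurod1 and 0.83 for Mfap4. Against mutant Atoh1+ Wif1-zero cells, 1.14% of all genes were lower and 5.18% higher. Of 5 unipolar brush cell markers measured in that comparison, Eomes and Mab21l1 were lower and Calb2 was higher. Eomes was at 24.2 CPM, against 7.45, 62.4 and 43.8 CPM, and Calb2, which encodes calretinin, at 71.9 CPM, against 218, 13.3 and 8.83 CPM, with 69.1% of its UMIs in 10 of the Atoh1+ Wif1-high cells. Slc17a6, the vesicular glutamate transporter VGLUT2, was at 22.3 CPM, against 16.4, 62.4 and 48.1 CPM. Of 7 differentiating granule neuron markers, 2 were lower than in mutant Atoh1+ Wif1-zero cells and 1, Grin2b, was higher, beside the same shares of all genes. Of 14 neuronal differentiation genes, Gap43 and Nefl were lower than in mutant Atoh1+ Wif1-zero cells and none was higher, beside 1.14% and 5.18% of all genes. The list median was 0.07 beside 0.07 over all genes.

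Barx2 (chr9:31846044-31913462, minus strand), fixed as a marker, did not separate the Atoh1+ Wif1-high cells from other mutant Atoh1+ cells. It was at 50.8 CPM (46.2 to 55.8) in the Atoh1+ Wif1-high cells and at 45.8 CPM (42.4 to 49.5) in the mutant Atoh1+ Wif1-zero cells, a ratio of 1.11-fold (0.98 to 1.25). The control Atoh1+ Wif1-zero cells had 27.4 CPM, a ratio of 1.86-fold (1.67 to 2.07). Against the mutant Wif1-high Atoh1-zero cells, at 4.0 CPM, the ratio was 12.7-fold (10.8 to 14.9), the largest log2 ratio among the genes named there. Only 139 of the 411 cells (33.8%) had a Barx2 UMI, with at most 19. The shares at 3000 UMIs were 13.9% of Atoh1+ Wif1-high, 1.14% of mutant Wif1-high Atoh1-zero, 10.4% of mutant Atoh1+ Wif1-zero and 6.85% of control Atoh1+ Wif1-zero cells.

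Other homeobox genes split. Shox2, a homeobox factor of limb, heart and some brain neurons, was at 132 CPM, against 66.9 CPM in mutant Wif1-high Atoh1-zero, 44.8 CPM in mutant Atoh1+ Wif1-zero and 2.14 CPM in control Atoh1+ Wif1-zero cells. Msx2, a target of BMP signalling, was at 25.9 CPM, against 24.2, 8.94 and 5.32 CPM. Tlx3, a factor of glutamatergic neurons, was at 15.9 CPM, against 3.41, 52.7 and 89.8 CPM. En1 and Gbx2, which pattern the midbrain and anterior hindbrain, were lower than in mutant Wif1-high Atoh1-zero cells, at 38.5 against 79.4 CPM and at 15.9 against 48.5 CPM. In all, 2 of 10 measured genes of this list were higher and 1 lower against mutant Atoh1+ Wif1-zero cells, beside 5.18% and 1.14% of all genes. Against control Atoh1+ Wif1-zero cells, Shox2, Msx2, Lhx2 and Lhx9 were higher and Tlx3 lower of 9, beside 8.82% and 2.82% of all genes.

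**Figure D3:**
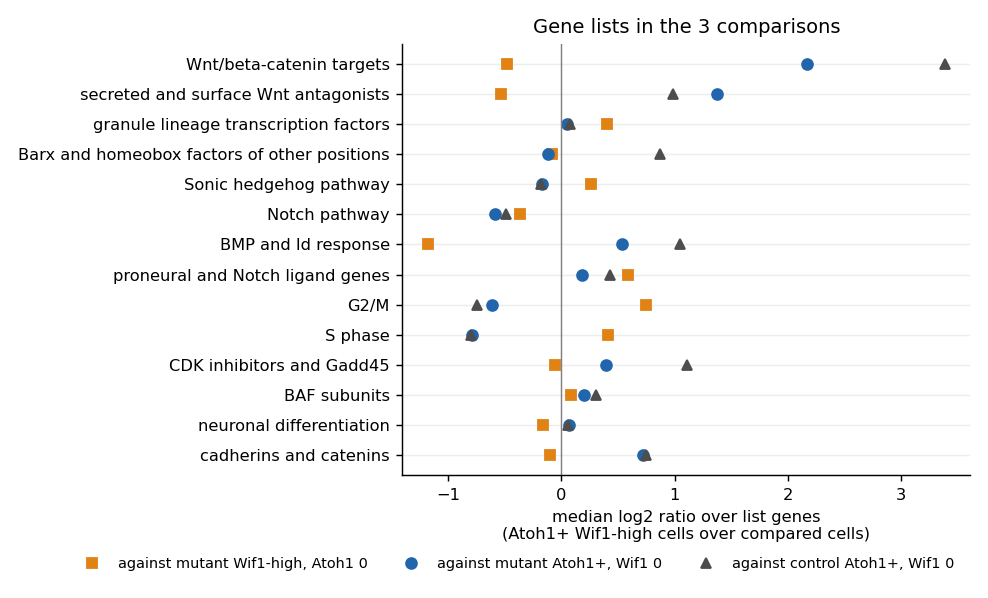
Median log2 ratio of each gene list in the Atoh1+ Wif1-high cells over each of the compared groups (x axis, log2; 1 row per list). The Wnt target list lies at 2.16 against mutant and 3.38 against control Atoh1+ Wif1-zero cells and at -0.48 against mutant Wif1-high Atoh1-zero cells.

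The genes altered in the mutants were measured by tags from the 3' end of the transcript, which need not change when an exon is deleted, so their levels do not check recombination. Smarca4 was at 59.9 CPM in the Atoh1+ Wif1-high cells, 48.2 CPM in the mutant Wif1-high Atoh1-zero cells, 57.6 CPM in the mutant Atoh1+ Wif1-zero cells and 69.4 CPM in the control Atoh1+ Wif1-zero cells. Its ratio over the mutant Atoh1+ Wif1-zero cells was 1.04-fold (0.93 to 1.16). Ctnnb1 was at 226 CPM, against 235, 140 and 123 CPM in those groups, and its ratio over the mutant Atoh1+ Wif1-zero cells was 1.61-fold (1.51 to 1.72), under the 2-fold rule. Of 23 BAF subunit genes measured, 2 were higher than in mutant Atoh1+ Wif1-zero cells and none was lower, with a list median of 0.20. That is 2 of 23 beside 5.18% of all genes, a share too near to set the list apart. They were Dpf3, a histone-reading subunit, at 72.9 against 28.1 CPM, and Brd7, a bromodomain subunit of the PBAF form, at 455 against 178 CPM. Against control Atoh1+ Wif1-zero cells, where Dpf3 was at 13.6 CPM and Brd7 at 104 CPM, Smarcd3 and Actl6b were also higher. That is 4 of 23, beside 8.82% of all genes. None of 22 passed 2-fold against mutant Wif1-high Atoh1-zero cells, beside 2.3% of all genes either way, too near to set the list apart.

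Over all cells, the cell cycle lists had medians below 0 against other Atoh1+ cells and above 0 against the Wif1-high cells without Atoh1, with most genes within 2-fold. The list median of 24 G2/M genes was -0.61 against mutant and -0.74 against control Atoh1+ Wif1-zero cells and 0.75, over 23 measured genes, against mutant Wif1-high Atoh1-zero cells. That of 21 S phase genes was -0.79 and -0.80, and over 17 measured genes 0.41 against the mutant Wif1-high Atoh1-zero cells. The G2/M direction against Atoh1+ cells depended on the cells compared: the median against mutant Atoh1+ Wif1-zero cells was 0.37 within cluster 12 and, outside the clusters made up mostly of mutant cells, 0.07 against mutant and 0.10 against control Atoh1+ Wif1-zero cells. Outside those clusters 22 of 24 G2/M genes were higher than in mutant Wif1-high Atoh1-zero cells, beside 465 of all 7139 genes. By the 2-fold rule, over all cells, only Ccna2 of the G2/M list and Tyms, Rrm2, Rad51ap1 and Ung of the S phase list were lower than in mutant Atoh1+ Wif1-zero cells. That is 1 of 24 and 4 of 21, beside 1.14% of all genes. Top2a, the topoisomerase of dividing cells, was at 255 CPM in the Atoh1+ Wif1-high cells, 142 CPM in the mutant Wif1-high Atoh1-zero cells, 360 CPM in the mutant Atoh1+ Wif1-zero cells and 403 CPM in the control Atoh1+ Wif1-zero cells. At 3000 UMIs per cell, Mki67 or Top2a was seen in 27.6% (23.3 to 32.2%) of the Atoh1+ Wif1-high cells. The shares were 15.5% (14.5 to 16.6%) in mutant Wif1-high Atoh1-zero, 36.3% (33.0 to 39.6%) in mutant Atoh1+ Wif1-zero and 43.1% (41.4 to 44.8%) in control Atoh1+ Wif1-zero cells. In the Alas2-led cells they were 4.78% in the mutant and 9.69% in the control library. Without thinning, the share among the Atoh1+ Wif1-high cells was 44.0%.

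Inhibitors of the cycle were present too. Cdkn1a, which encodes the inhibitor p21, was at 164 CPM, against 254 CPM in mutant Wif1-high Atoh1-zero, 17.9 CPM in mutant Atoh1+ Wif1-zero and 15.4 CPM in control Atoh1+ Wif1-zero cells. It was uneven, with a UMI in 117 cells and 46.7% of its UMIs in 10 of them. Gadd45g, a stress and differentiation response gene, was at 263 CPM, against 282, 108 and 58.2 CPM. Cdkn1c, which encodes p57, was at 261 CPM, against 249, 136 and 47.5 CPM, above 2-fold only over the control. It was uneven too, with a UMI in 252 of the Atoh1+ Wif1-high cells and 52.4% of its UMIs in 10 of them.

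Sonic hedgehog drives granule precursor division, and none of the 11 measured genes of that pathway differed by 2-fold from the mutant Atoh1+ Wif1-zero cells (median -0.17). Ptch1, the hedgehog receptor and a target of the pathway, was at 60.1 CPM, against 80.8, 50.2 and 64.2 CPM in mutant Wif1-high Atoh1-zero, mutant Atoh1+ Wif1-zero and control Atoh1+ Wif1-zero cells. Of 5 Notch pathway genes none passed 2-fold against mutant Atoh1+ Wif1-zero cells, with a median of -0.58. Over all genes 6.32% passed either way in that comparison. None of 11 and none of 5 are too near that share to set either pathway apart. In the BMP and Id list, 1 of 7 was higher than in mutant Atoh1+ Wif1-zero cells, beside 5.18% of all genes. It was Gdf10, a BMP family ligand, at 60.0 against 14.7 CPM. Against mutant Wif1-high Atoh1-zero cells 4 of 7 were lower, beside 0.954% of all genes. Gdf10 was at 143 CPM there, and Id3, an inhibitor of helix-loop-helix factors, was at 136 against 325 CPM. Of 10 cadherin and catenin genes, Ctnna2, Cdh6 and Cdh11, which take part in cell adhesion, were higher than in mutant Atoh1+ Wif1-zero cells. That is 3 of 10 beside 5.18% of all genes, with a list median of 0.72 beside 0.07 over all genes. Cdh11 was at 66.2 against 22.3 CPM.

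Compared with the mutant Wif1-high Atoh1-zero cells, 69 genes were lower. The gene furthest below was Ptgds, a prostaglandin synthase, at 10.8 against 76.0 CPM, with 72.4% of its UMIs in the mutant Wif1-high Atoh1-zero cells in 10 of them. Tmem100, a membrane protein gene, was at 21.6 against 77.0 CPM, and Ttr, described below, was lower in this comparison as well. Igfbp7, a secreted growth factor binding protein, was at 140 against 428 CPM. Pycr1, an enzyme of proline synthesis, was at 47.7 against 167 CPM. The metallothioneins Mt1 and Mt2 were at 36.6 against 122 CPM and at 14.1 against 56.4 CPM. Calb2, given above, was lower too.

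Among genes that separate the mutant groups carrying either gene alone, the Atoh1+ Wif1-high cells mostly lay between them. Of 990 genes, out of 7479 measured, that differed by 2-fold between mutant Wif1-high Atoh1-zero and mutant Atoh1+ Wif1-zero cells, 930 (93.9%) had a level in between. The Wif1-high side was nearer for 722 (72.9%), and the median position, with 0 at the Atoh1+ Wif1-zero level and 1 at the Wif1-high level on the log2 scale, was 0.64. With marked doublets removed, 958 of 1045 (91.7%) lay in between. Among cells with 5 or more Atoh1 UMIs it was 986 of 1088 (90.6%), and within cluster 12, described below, 753 of 831 (90.6%). Outside the clusters made up mostly of mutant cells it was 785 of 1063 (73.8%), and the Wif1-high side was nearer for 27.8%. A doublet of a cell of each kind would also lie in between. So would a level summed over a mixture of cells near either group, and how far such mixing set these positions was not tested. The median doublet score was 0.198 in the Atoh1+ Wif1-high cells, against 0.129 in mutant Wif1-high Atoh1-zero and 0.111 in mutant Atoh1+ Wif1-zero cells, and the part of unmarked doublets was not tested.

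Of 7479 genes, 14 (0.187%) were 2-fold above both mutant groups at once, and 2 were 2-fold below both. Several of the 14 rested on few cells. Il1rapl2, a synaptic receptor of the interleukin-1 family, was at 124 CPM, against 17.4 CPM in mutant Wif1-high Atoh1-zero and 25.8 CPM in mutant Atoh1+ Wif1-zero cells, but 51 cells held its UMIs and 10 of them held 72.7%. For Npy, a neuropeptide, 10 cells held 74.9% of the UMIs. The most evenly spread was Lzts1, a leucine zipper gene linked to the departure of new neurons from the ventricular zone, with a UMI in 73.7% of the cells and 11.1% of its UMIs in the top 10. It was at 136 CPM, against 63.8 CPM in mutant Wif1-high Atoh1-zero, 62.6 CPM in mutant Atoh1+ Wif1-zero and 33.2 CPM in control Atoh1+ Wif1-zero cells. Myo16, an unconventional myosin of neurons, was at 351 CPM, against 116, 125 and 160 CPM, in 262 cells. Trabd2b, a metalloprotease that inactivates Wnt ligands, was at 105 CPM, against 29.7, 29.2 and 11.2 CPM, in 182 cells. The others were Cpne4, Runx3, Adcy8, Cntnap5b, Mgat4c, Rbm24, Hspb1, Fam78b and Mylk.

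Markers of other cell types moved with some of these groups. Ttr, a very abundant choroid plexus transcript, was at 910 CPM in the Atoh1+ Wif1-high cells, against 2382 CPM in mutant Wif1-high Atoh1-zero, 3620 CPM in mutant Atoh1+ Wif1-zero and 1348 CPM in control Atoh1+ Wif1-zero cells. In the Atoh1+ Wif1-high cells 10 cells held 76.1% of it, and in the mutant Atoh1+ Wif1-zero cells 10 cells held 89.7%. Among cells with 5 or more Atoh1 UMIs the log2 ratio of Ttr over mutant Atoh1+ Wif1-zero cells was 0.11, where it was -1.99 over all cells. The summed level of 6 choroid plexus markers was 1096, 2436, 3844 and 1514 CPM in the 4 groups in that order. That of 5 erythroid markers was 36845, 55544, 34777 and 45906 CPM, and that of 5 microglial markers 4.30, 18.2, 16.7 and 19.9 CPM. The 5 endothelial markers summed to 9.19, 40.0, 12.5 and 11.7 CPM. The 12 markers of neural progenitors and astroglia summed to 2144, 3261, 1707 and 1646 CPM, and the 10 of differentiating granule neurons to 526, 327, 890 and 1171 CPM. Of these lists, only that of differentiating granule neurons had a marker at 0 in the Atoh1+ Wif1-high cells, 1 of 10. The part of RNA from these cell types in the results was not tested.

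With marked doublets removed, 365 Atoh1+ Wif1-high cells remained and fell into 22 clusters of a joint clustering of both libraries. The largest share, 167 cells or 45.8% (40.6 to 51.0%), was in cluster 12, led by Pycr1, Cdkn1a, Wif1, Fstl4 and Neurog2. That cluster also held 41.0% of the mutant Wif1-high Atoh1-zero cells, 69 mutant Atoh1+ Wif1-zero cells and none of the control Atoh1+ Wif1-zero cells. Cluster 25 held 51 (14.0%), cluster 14 held 36 (9.86%) and cluster 23 held 35 (9.59%). Clusters in which mutant cells outnumbered control cells at least 5-fold held 74.5% (69.7 to 78.9%) of the Atoh1+ Wif1-high cells. They held 86.3% of the mutant Wif1-high Atoh1-zero, 16.8% of the mutant Atoh1+ Wif1-zero and 0.229% of the control Atoh1+ Wif1-zero cells. The clustering left out Atoh1, Wif1 and the genes of the gene and marker lists. Genes left out could still be named as leading a cluster, as Cdkn1a, Wif1, Fstl4 and Neurog2 were. These shares are a description, and a cluster mostly of 1 library may reflect that library.

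**Figure D4:**
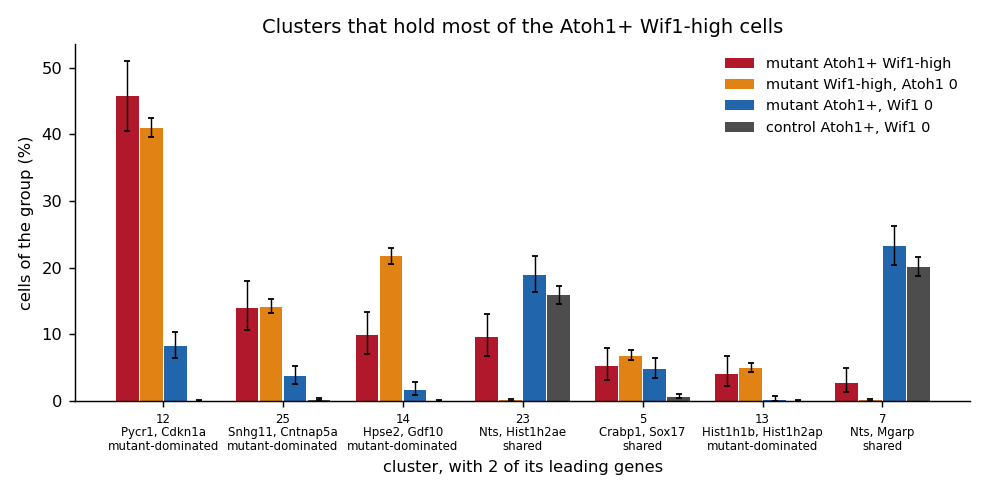
Where the Atoh1+ Wif1-high cells and the compared groups fall in the joint clustering (percent of each group's cells per cluster, doublets removed). Cluster 12 holds 45.8% of the Atoh1+ Wif1-high cells and cluster 23, shared with the control library, 9.59%.

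Within cluster 12, genes found higher in the whole comparison also stood above the cells without Atoh1. These cells are a part of those already compared, so the values are a description and not separate support. Barx2 was at 61.4 CPM in its 167 Atoh1+ Wif1-high cells against 6.11 CPM in its 1829 mutant Wif1-high Atoh1-zero cells. Barhl1 was at 95.7 against 9.43 CPM, Otx2 at 161 against 44.0 CPM, Insm1 at 82.6 against 26.4 CPM and Pax6 at 58.1 against 20.0 CPM. Of 14 G2/M genes measured there, 10 were higher, beside 121 of all 7069 genes, with a median log2 of 1.21. Notum and Rnf43 were lower, as in the whole comparison. Against the 69 mutant Atoh1+ Wif1-zero cells of the cluster, 4 of 10 Wnt targets were higher, beside 270 of all 7191 genes.

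Cluster 23 is a cycling cluster made up mostly of control cells, with 749 control and 293 mutant cells. It held 35 Atoh1+ Wif1-high cells, 157 mutant and 486 control Atoh1+ Wif1-zero cells, and 5 mutant Wif1-high Atoh1-zero cells. The G2/M and S phase genes measured in it, 24 and 22, were all within 2-fold between the Atoh1+ Wif1-high and the mutant Atoh1+ Wif1-zero cells. Of all 6849 genes, 270 were higher and 97 lower there, so this does not set these lists apart. Top2a was at 1006 against 898 CPM. Of 8 Wnt targets, 6 were higher than in those cells, beside 270 of all 6849 genes, with a median log2 of 1.44. Axin2 was at 108 CPM in the Atoh1+ Wif1-high cells, against 35.0 CPM in mutant and 22.1 CPM in control Atoh1+ Wif1-zero cells. Neurog2 was at 166 CPM, against 9.86 and 0.523 CPM. Barx2 was at 128 CPM, against 79.2 and 73.4 CPM. Fstl4 was at 298 against 22.9 CPM, Shox2 at 106 against 24.2 CPM and Neurod1 at 93.1 against 240 CPM in the mutant Atoh1+ Wif1-zero cells.

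The Atoh1+ Wif1-high cells differed among themselves along both genes that chose them, and the following values are a description over classes cut from those counts. By Atoh1, the classes were 1 UMI (144 cells), 2 (65 cells), 3 to 4 (86 cells) and 5 or more (116 cells). Barx2 was at 22.6, 40.5, 67.8 and 73.7 CPM along them, and Neurog2 at 102, 163, 194 and 246 CPM. Barhl1 was at 75.7, 101, 116 and 126 CPM, Insm1 at 69.7, 106, 112 and 156 CPM, and Hes6 at 269, 354, 375 and 420 CPM. Each of these 5 genes was higher in every class than in the one before. The differentiation gene Neurod1 ran the other way, at 116, 110, 88.8 and 47.4 CPM, as did Fstl4, at 961, 858, 710 and 585 CPM. The Wnt readouts held nearly level, with Axin2 at 170, 139, 144 and 160 CPM and Nkd1 at 689, 711, 684 and 776 CPM.

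**Figure D5:**
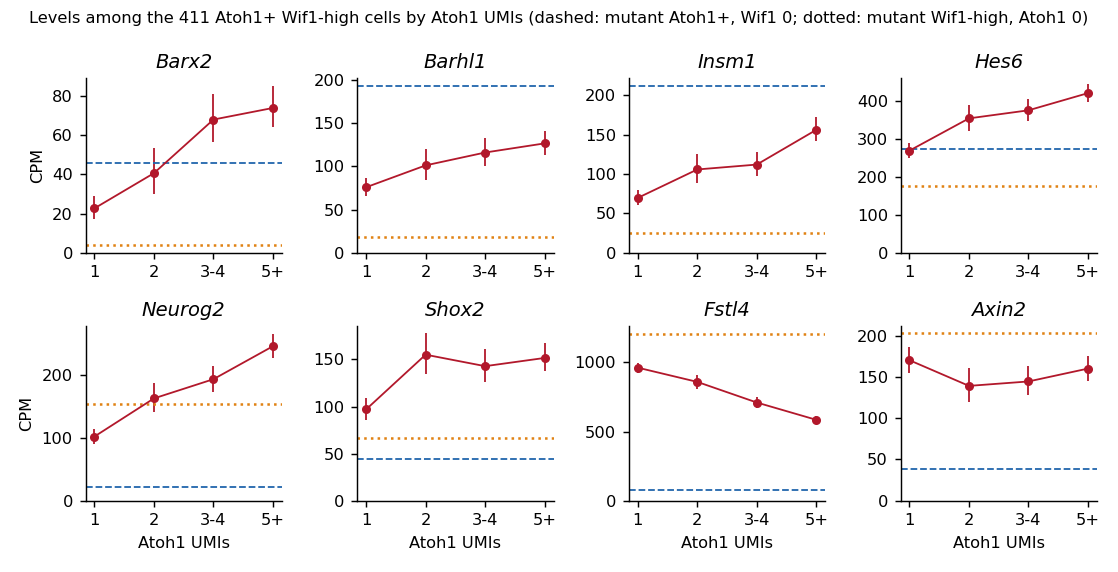
Level (CPM) of single genes in Atoh1+ Wif1-high cells by their number of Atoh1 UMIs, with exact 95% Poisson intervals. Barx2 is at 22.6 CPM in cells with 1 Atoh1 UMI and at 73.7 CPM in cells with 5 or more, while Axin2 is at 170 and 160 CPM. Dashed and dotted lines mark the level in mutant Atoh1+ Wif1-zero and mutant Wif1-high Atoh1-zero cells.

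By Wif1, the classes were 2 to 5 UMIs (148 cells), 6 to 15 (152 cells) and 16 or more (111 cells). Fstl4 was at 326, 731 and 1227 CPM along them, Lef1 at 146, 218 and 326 CPM, and Axin2 at 112, 165 and 190 CPM. Cdkn1a was at 50.1, 167 and 263 CPM. Barhl1 was at 141, 94.5 and 79.5 CPM and Insm1 at 146, 106 and 84.3 CPM, so these were lower where Wif1 was higher. Barx2 was at 53.9, 50.7 and 48.1 CPM, with little change. Neurog2 was at 158, 162 and 206 CPM.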

How the data were processed

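The deposited files hold the authors' raw UMI counts per gene and cell barcode, made with Cell Ranger 7.0.1 and mm10, per the submitters' processing notes. Gene positions came from the GENCODE annotation of GRCm38, in which 32158 of 32285 genes were found by ID. The members and the gene lists were chosen with earlier results of these data known. Cells were filtered as in the report, without removing background RNA. Counts were summed over the cells of each group and scaled to CPM. Log2 ratios used a pseudocount of 1 CPM. Genes at 20 CPM in either group were measured and 2-fold was the threshold. Intervals were exact Poisson, conditional binomial (ratios) or Clopper-Pearson (shares), at 95%. Named genes were, in each comparison, the 12 furthest each way at 50 CPM or more in the higher group, up to 4 of each list, and Barx2, Barhl1, Smarca4 and Ctnnb1. Other genes named, among them the 14 above both mutant groups, were chosen after their values were seen. Doublets were called with Scrublet and cells clustered with Leiden (2000 variable genes, 30 components, 15 neighbours, resolution 1; scanpy 1.11.5), after removal of marked doublets. For shares, cells were thinned to 3000 UMIs. The calculation was tested on simulated data. The alternatives changed the thresholds, doublets, totals, weights, pseudocount and clusters.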

Additional observations from a re-analysis of the deposited data

How the results depend on the processing

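No paired analysis was possible because there was 1 library per genotype. Comparisons below are in the order mutant Atoh1+ Wif1-zero, control Atoh1+ Wif1-zero, mutant Wif1-high Atoh1-zero cells, and a pair is higher and lower genes. Of the planned and added settings, 74 counts or shares stayed within 1.5 times or within their interval and 36 did not. With doublets removed, Wnt target medians were 2.28 and 3.45 in the first comparisons, and the G2/M median against Wif1-high Atoh1-zero cells was 0.61. Requiring 1 Wif1 UMI gave 33 genes lower in the first comparison and 122 lower in the last. Requiring 2 Atoh1 UMIs left 267 cells and gave 174 lower in the last. Without haemoglobin, mitochondrial and ribosomal genes in the total, 125 and 321 genes were lower in the first comparisons, and against the control the Wnt median was 3.28 and the granule lineage median turned to -0.11. With equal weights, 128 genes were lower in the first comparison and 118 in the last, the Wnt medians were 3.37 against the control and -0.71 in the last, and the granule lineage median in the last was 0.32. A pseudocount of 5 CPM gave a Wnt median of 2.55 against the control. A minimum of 10 CPM gave 115 lower in the last comparison, and one of 50 CPM gave pairs of 234 and 52, 375 and 115, and 59 and 40. A threshold of 1.5-fold gave 857 and 349, 1318 and 605, and 292 and 295. Without thinning the cycling share was 44.0%, and at resolution 0.5 mutant-dominated clusters held 60% of the cells.

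The remaining settings were chosen after seeing the data. Requiring 5 Atoh1 UMIs left 116 cells, gave 161 and 224 in the last comparison and turned Ttr to a log2 ratio of 0.11 in the first. Within cluster 12, 126 genes were lower in the first comparison and 144 in the last, and log2 ratios in the first turned to 5.89 for Nts, 0.83 for Mfap4, 0.96 for Cadps2 and 1.85 for Neurod1. Within cluster 23 the control comparison gave 333 and 132, and Hsd11b2 turned to 0.093 in the first. Outside mutant-dominated clusters the pairs were 222 and 40, 322 and 127, and 465 and 316, so that the last comparison had the most genes and not the fewest. Of single named genes, 602 values stayed within their interval, 496 moved and 6 turned. The cause was not tested. Cluster 12 held no control Atoh1+ Wif1-zero cells, so that comparison has no value. Cluster 23 held 5 mutant Wif1-high Atoh1-zero cells, and with so few the last comparison there, 901 and 912, was not used. Depth limits genes near 20 CPM and cells near the UMI thresholds, and the single pooled library of each genotype gives no spread between animals.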
